A study of Mus musculus with 9 samples.

Results

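The genes examined were 10 of the 27179 genes in the count table that handle ammonia, ornithine and glutamine in the mouse liver. They were taken by symbol, and the rule used none of their measured values. Earlier results of these data were known when the genes were chosen. They are the urea cycle enzymes Nags, Cps1, Otc, Ass1, Asl and Arg1, the periportal amino acid enzymes Gls2 and Hal, and the pericentral enzymes Glul and Oat. Liver RNA was sequenced from female Apoe-/- mice (5 libraries) and female Mif-2-/-Apoe-/- mice (4 libraries), all on the C57BL/6 background and all without Apoe. Mif-2, encoded by Ddt, was deleted in the whole animal. Both groups were fed a cholesterol-rich high-fat diet (HFD) for 12 weeks from 8 weeks of age. Each library was made from lysates of 3 to 4 frozen liver sections, so RNA of all lobular zones and all liver cell types was mixed. Nothing in the labels says how many animals the libraries stand for, so p-values measure the spread between these libraries.

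Blood flows through the liver lobule from the portal tracts to the central vein, and hepatocytes along this path divide their nitrogen metabolism. Periportal hepatocytes release ammonia from amino acids and turn it into urea, while a narrow ring of hepatocytes around the central vein captures the remaining ammonia as glutamine under the control of Wnt and β-catenin signalling. In bulk tissue, fewer cells of a zone and less RNA per cell cannot be told apart.

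Reads were counted on exons. Values below are counts per 1e6 counts of the tested genes (CPM) after TMM normalization, and a positive log2 fold change means a higher level in Apoe-/- livers. Differences were tested with the edgeR quasi-likelihood test over 16860 genes with Benjamini-Hochberg adjustment, and beside it with a two-sided exact permutation test on log2(CPM + 0.5) over the 126 arrangements of the 9 libraries, whose smallest possible p is 0.0079. Library totals were between 2318148 and 10764182 counts. The deleted gene Ddt was at 233 to 972 CPM in Apoe-/- livers and at 2.51 to 5.49 CPM in Mif-2-/-Apoe-/- livers, as the labels say. Summed hepatocyte markers were at 90268 to 286030 CPM in Apoe-/- and 76784 to 250360 CPM in Mif-2-/-Apoe-/- libraries, on the same scale. The mean of each of these 9 markers was higher in Apoe-/- livers, the direction of Glul and Oat, with mean sums of 203250 ± 71132 (SD, n = 5) and 137970 ± 77020 CPM (SD, n = 4). Of the Apoe-/- libraries 4 were at 201090 CPM or more and library 5 at 90268 CPM, and of the Mif-2-/-Apoe-/- libraries 3 were at 119760 CPM or less and library 2 at 250360 CPM. The part of these markers in the results below was not tested. The summed markers of Kupffer cells and macrophages, endothelial cells, stellate cells, cholangiocytes, lymphocytes and erythroid cells also overlapped between the genotypes, with 0 genes of these lists called. All 10 genes passed the filter on low counts, with 107 counts or more in every library.

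The promoters of the pericentral pair and of Hal, as a periportal gene for comparison, are shown because Oat carried the largest genotype difference of the 10 genes. Each is the sequence of the 250 bases before the transcription start in RefSeq (GRCm38.p6), read 5′ to 3′ on the strand of the gene. Capitals mark CCAAT boxes (CCAAT, or ATTGG for the other strand) and, in Hal, a TATA box on the other strand (TTTATA, searched as TATAAA, which 12.4% of windows of this length held on either strand). The windows are chr7:132576399-132576648 on the minus strand for Oat, chr1:153899679-153899928 on the plus strand for Glul and chr10:93488518-93488767 on the plus strand for Hal.
Oat: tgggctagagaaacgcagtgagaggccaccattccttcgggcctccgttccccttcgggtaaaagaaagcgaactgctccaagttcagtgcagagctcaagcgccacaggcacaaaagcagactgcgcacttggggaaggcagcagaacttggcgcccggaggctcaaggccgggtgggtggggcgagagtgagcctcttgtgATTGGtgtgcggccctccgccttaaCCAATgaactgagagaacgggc
Glul: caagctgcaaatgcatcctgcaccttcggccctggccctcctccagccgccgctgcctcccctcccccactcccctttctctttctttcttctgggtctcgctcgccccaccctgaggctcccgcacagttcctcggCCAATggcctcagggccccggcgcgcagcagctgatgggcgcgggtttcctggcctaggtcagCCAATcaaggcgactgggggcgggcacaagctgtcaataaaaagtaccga
Hal: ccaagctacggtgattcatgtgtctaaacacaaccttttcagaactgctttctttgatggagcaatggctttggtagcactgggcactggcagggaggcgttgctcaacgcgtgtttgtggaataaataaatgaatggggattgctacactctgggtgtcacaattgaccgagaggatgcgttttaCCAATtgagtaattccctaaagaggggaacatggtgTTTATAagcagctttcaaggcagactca
Both pericentral promoters held 2 CCAAT boxes. In Oat they lay 47 to 43 and 22 to 18 bases before the start, and in Glul 113 to 109 and 50 to 46 bases before it. Hal held 1, at 64 to 60 bases. Of 32851 promoter windows of the same length, 33.8% held 1 or more CCAAT boxes on either strand, and the share with 2 was not counted. The windows of Ass1, Nags and Otc held none. The TCF/LEF letters CTTTGNT, which 16.0% of windows held on either strand, were not found in the Oat and Glul windows and were found in those of Hal and Nags. The matches named did not overlap each other. RefSeq promoters of 6 of the 10 genes were matched, and those of Cps1, Asl, Arg1 and Gls2 were not.

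Oat, ornithine aminotransferase, passes ornithine toward glutamate and proline. Its gene (Entrez 18242) has up to 10 exons and takes positions 132557478 to 132576398 of chromosome 7, minus strand (GRCm38, GENCODE M21). Oat was at 560, 550, 594, 919 and 315 CPM in Apoe-/- libraries 1 to 5 and at 397, 165, 106 and 198 CPM in Mif-2-/-Apoe-/- libraries 1 to 4. Library 5 was the lowest of the Apoe-/- libraries and library 1 was the highest of the Mif-2-/-Apoe-/- libraries, and only this pair overlapped. The means were 588 ± 216 (SD, n = 5) and 217 ± 126 CPM (SD, n = 4). The fitted difference was 2.71-fold, or 1.44 on the log2 scale (standard error, SE, 0.41, 95% interval 0.56 to 2.32). The edgeR test gave an unadjusted p of 0.0034 and an adjusted p of 0.154, which did not pass the threshold of 0.05. The exact permutation test gave p = 0.024. DESeq2, run on the same counts, called Oat (log2 fold change 1.45, adjusted p = 0.015). Over 19 other ways of processing the counts, listed with the methods, the log2 fold change of Oat stayed between 1.21 and 1.91, and its adjusted p between 0.012 and 0.334. With 1 library left out DESeq2 called Oat in 6 of 9 runs, those without Apoe-/- libraries 1, 2, 3 and 5 (3.79%, 2.97%, 3.64% and 12.6% of all genes called) and without Mif-2-/-Apoe-/- libraries 1 and 2 (3.76% and 10.7%). It did not call Oat without Apoe-/- library 4 (adjusted p = 0.066, 3.19% of all genes called), Mif-2-/-Apoe-/- library 3 (adjusted p = 0.063, 2.86%) or Mif-2-/-Apoe-/- library 4 (adjusted p = 0.065, 3.05%).

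Glul, glutamine synthetase, joins ammonia to glutamate in the hepatocytes next to the central vein. Its gene (Entrez 14645, chromosome 1, 153899944 to 153909723, plus strand) shares 116 of its exon bases with Mir8114 and with Teddm2, which is on the other strand. Glul was at 603, 719, 657, 886 and 343 CPM in Apoe-/- libraries and at 494, 432, 321 and 522 CPM in Mif-2-/-Apoe-/- libraries. Of the Apoe-/- libraries, 4 lay above every Mif-2-/-Apoe-/- library, and library 5 lay below 3 of the 4. The means were 641 ± 198 (SD, n = 5) and 442 ± 89.0 CPM (SD, n = 4). The log2 fold change was 0.54 (SE 0.32, 95% interval -0.14 to 1.21) and did not pass the edgeR test (adjusted p = 0.438). The exact permutation test gave p = 0.143. Without Apoe-/- library 5 the log2 fold change was 0.69. DESeq2 then called Glul (adjusted p = 0.044), in a run that called 12.6% of all genes. That library also held the lowest summed hepatocyte markers of its genotype (90268 against 201090 to 286030 CPM) and the lowest share of counts in the 10 most abundant genes (14.7% against 20.5 to 23.7%). With that share as a term in the fit, the log2 fold change was 0.33 for Glul and 1.44 for Oat (adjusted p = 0.799 and 0.280). The cause of the low Glul value in library 5 was not tested.

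**Figure D1:**
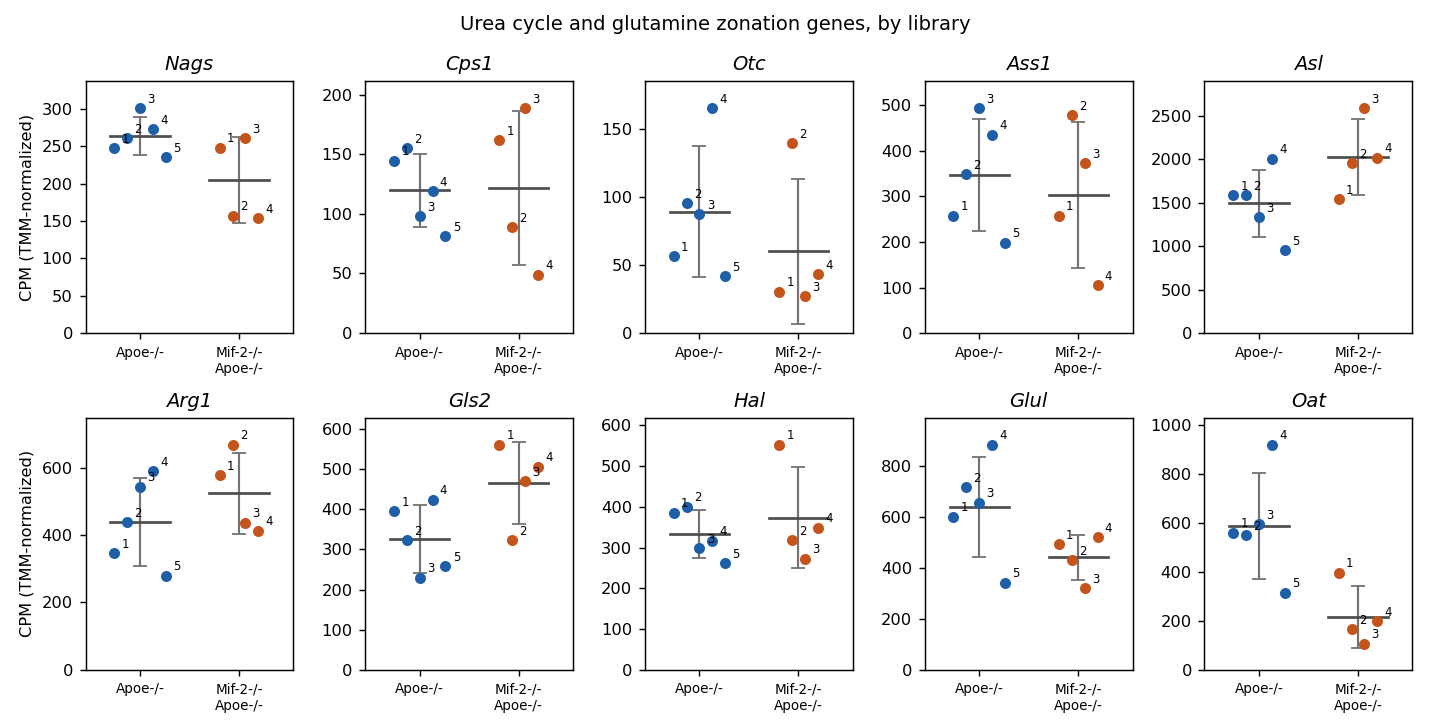
CPM of the 10 genes in each library (points, numbered as in the labels), with the mean as a bar and the SD as an error line, for 5 Apoe-/- and 4 Mif-2-/-Apoe-/- libraries. Every gene overlaps between the genotypes, and in Oat the overlap is between Apoe-/- library 5 (315 CPM) and Mif-2-/-Apoe-/- library 1 (397 CPM).

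The mitochondrial steps of the urea cycle are carried by Nags, which makes the activator of carbamoyl phosphate synthesis, Cps1, which fixes ammonia into carbamoyl phosphate, and Otc, which joins it to ornithine. Nags (Entrez 217214, chromosome 11, 102145513 to 102149477, plus strand) was at 247, 260, 301, 272 and 235 CPM in Apoe-/- and 248, 157, 261 and 154 CPM in Mif-2-/-Apoe-/- libraries. Its Mif-2-/-Apoe-/- values split, with libraries 1 and 3 inside the Apoe-/- range and libraries 2 and 4 below it. The log2 fold change was 0.36 (SE 0.28, adjusted p = 0.574). Of its exon bases, 443 are shared with the antisense gene Gm11586, whose reads cannot be told apart in an unstranded library. Cps1 (Entrez 227231, chromosome 1, 67123026 to 67231259, plus strand) was at 145, 155, 98.1, 119 and 81.3 CPM in Apoe-/- and 162, 88.6, 189 and 48.9 CPM in Mif-2-/-Apoe-/- libraries. The Mif-2-/-Apoe-/- libraries held both the highest and the lowest Cps1 value of the study. The means, 120 ± 30.9 (SD, n = 5) and 122 ± 64.5 CPM (SD, n = 4), gave a log2 fold change of -0.03 with a 95% interval from -0.86 to 0.80 (adjusted p = 0.983), which spans both directions. The sign of the Cps1 difference depended on the scaling, and the log2 fold change was 0.17 with TMMwsp.

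Otc (Entrez 18416, chromosome X, 10252305 to 10321024, plus strand) varied most of the 10 genes, with a coefficient of variation of 64.9% over the 9 libraries. It was at 56.5, 95.6, 87.3, 165 and 41.8 CPM in Apoe-/- and 30.5, 140, 27.0 and 43.4 CPM in Mif-2-/-Apoe-/- libraries. Mif-2-/-Apoe-/- library 2 stood above 4 of the 5 Apoe-/- libraries, while the other 3 were near or below the lowest of them. The log2 fold change was 0.58 (SE 0.53, adjusted p = 0.636). Without that library it was 1.51 by edgeR, still not called. DESeq2 called Otc in that run (adjusted p = 0.036), where it called 10.7% of all genes. Library 2 was the smallest library, and its 10 most abundant genes took 26.3% of the counts against 12.5 to 17.0% in the other Mif-2-/-Apoe-/- libraries. With that share as a term in the fit, the log2 fold change of Otc was 0.13. The cause of the high Otc value in library 2 was not tested.

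The cytosolic steps are carried by Ass1 and Asl, which make argininosuccinate and split it into arginine and fumarate, and by Arg1, arginase, which releases urea and ornithine. Ass1 (Entrez 11898, chromosome 2, 31470207 to 31520672, plus strand) was at 258, 350, 494, 436 and 198 CPM in Apoe-/- and 258, 478, 373 and 105 CPM in Mif-2-/-Apoe-/- libraries. The ranges lay over each other apart from the low Mif-2-/-Apoe-/- library 4 and the high Apoe-/- library 3, and the log2 fold change of 0.19 (SE 0.41, adjusted p = 0.864) turned to -0.09 without that Mif-2-/-Apoe-/- library. Asl (Entrez 109900, chromosome 5, 130011258 to 130029247, minus strand) was the most abundant of the 10 genes, at 1582, 1582, 1335, 2006 and 956 CPM in Apoe-/- and 1538, 1957, 2588 and 2016 CPM in Mif-2-/-Apoe-/- libraries. Its mean was higher in Mif-2-/-Apoe-/- livers, 2025 ± 432 (SD, n = 4) against 1492 ± 385 CPM (SD, n = 5), with a log2 fold change of -0.44 (SE 0.30, adjusted p = 0.510). Arg1 (Entrez 11846, chromosome 10, 24915221 to 24927484, minus strand) was at 347, 438, 543, 590 and 279 CPM in Apoe-/- and 578, 668, 436 and 413 CPM in Mif-2-/-Apoe-/- libraries, a log2 fold change of -0.25 (SE 0.31, adjusted p = 0.742). In both Asl and Arg1 the lowest value was that of Apoe-/- library 5, the genotype ranges overlapped, and neither difference passed the edgeR test. The log2 fold changes of Asl and Arg1 were negative in all 19 other ways of processing.

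Gls2, the liver glutaminase that releases ammonia from glutamine in the mitochondria, (Entrez 216456, chromosome 10, 128194457 to 128210004, plus strand), shares 97 exon bases with Spryd4. Gls2 was at 395, 324, 230, 424 and 258 CPM in Apoe-/- libraries and at 561, 324, 470 and 507 CPM in Mif-2-/-Apoe-/- libraries. Mif-2-/-Apoe-/- libraries 1, 3 and 4 lay above every Apoe-/- library, and library 2 lay inside their range. The means were 326 ± 84.2 (SD, n = 5) and 465 ± 102 CPM (SD, n = 4). The difference of -0.51 on the log2 scale (SE 0.30, 95% interval -1.14 to 0.12) did not pass (edgeR adjusted p = 0.426, DESeq2 adjusted p = 0.229, exact permutation p = 0.087). Hal, histidine ammonia-lyase, which removes ammonia from histidine, (Entrez 15109, chromosome 10, 93488768 to 93519304, plus strand), was at 386, 401, 299, 317 and 262 CPM in Apoe-/- and 553, 319, 273 and 349 CPM in Mif-2-/-Apoe-/- libraries. Only Mif-2-/-Apoe-/- library 1 lay outside the Apoe-/- range, and the log2 fold change was -0.17 (SE 0.29, adjusted p = 0.836), with 0.02 under TMMwsp. Arg1, Gls2 and Hal lie on the chromosome of the deleted Ddt, at 50.9, 52.4 and 17.7 Mb from it.

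By the edgeR test 0 of the 10 genes were called, where 22 of 16860 genes, 0.13% of those tested, were called (0.0593% positive and 0.0712% negative). With 1 library left out edgeR again called 0 of the 10, where it called 0.0674%, 0.0857%, 0.0548%, 0.0664% and 0.777% of all genes without Apoe-/- libraries 1 to 5 and 0.135%, 1.6%, 0.0808% and 0.111% without Mif-2-/-Apoe-/- libraries 1 to 4. At an unadjusted p under 0.05 the test held 1 of the 10, Oat, against 15.5% of all genes. DESeq2 called 1 of the 10, Oat, against 5.27% of the 14030 genes to which it gave an adjusted p (2.52% positive and 2.75% negative), and at an unadjusted p under 0.05 it held 2 of the 10, Oat and Gls2, against 14.4% of the 21085 genes with a p. The genotype ranges did not overlap in 0 of the 10 genes and in 4.26% of all genes (2.24% higher and 2.03% lower in Apoe-/- livers). Without Apoe-/- library 5 they did not overlap for Glul and Oat (10.9% of all genes), without Mif-2-/-Apoe-/- library 1 for Oat (7.46%), and without Mif-2-/-Apoe-/- library 2 for Gls2 (11.1%). Leaving out any of the other 6 libraries separated 0 of the 10, with backgrounds of 5.35%, 5.26%, 5.73% and 5.38% without Apoe-/- libraries 1 to 4 and of 6.22% and 6.48% without Mif-2-/-Apoe-/- libraries 3 and 4. Counts of 0 to 2 in 10 genes do not set these genes apart from the background shares.

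**Figure D2:**
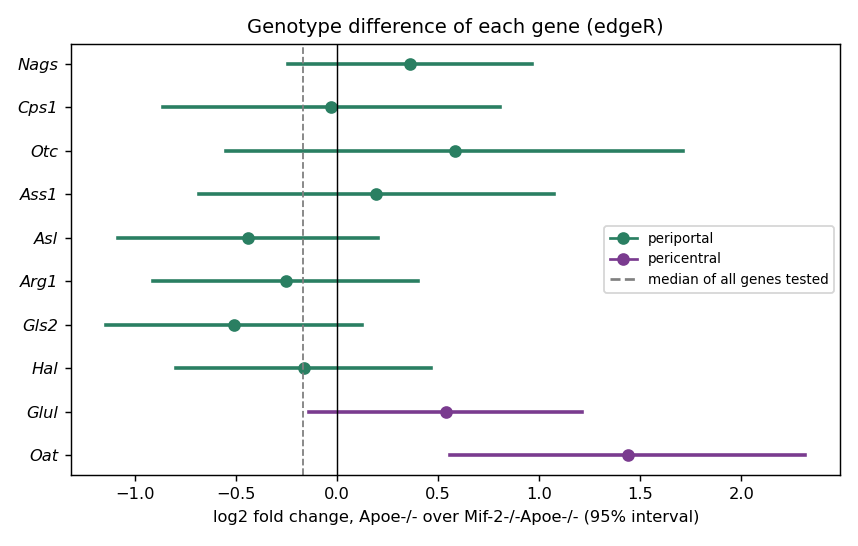
Log2 fold change of each gene, Apoe-/- over Mif-2-/-Apoe-/-, with its 95% interval from edgeR. Periportal genes are green, Glul and Oat purple, the dashed line marks the median of all genes tested (-0.17), and only the interval of Oat (0.56 to 2.32) does not include 0.

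The median log2 fold change was -0.10 over the 8 periportal genes and 0.08 over the 6 urea cycle genes, beside -0.17 for all genes tested. With TMMwsp the median of all genes was 0.00 and that of the 8 periportal genes 0.10, and Cps1 and Hal changed sign between the scalings. Of the 8, 3 were positive and 5 negative with TMM, and 5 were positive and 3 negative with TMMwsp. Glul and Oat were positive under both, at 0.73 and 1.65 with TMMwsp.

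Ratios within a library do not depend on the scaling of libraries, and they were used to set the periportal against the pericentral genes. The mean log2(CPM + 0.5) of the 8 periportal genes minus that of Glul and Oat was -1.02, -0.95, -1.06, -1.27 and -0.69 in Apoe-/- and -0.51, 0.29, 0.72 and -0.56 in Mif-2-/-Apoe-/- libraries. The genotypes did not overlap in this balance, whose means were -1.002 ± 0.21 (SD, n = 5) and -0.02 ± 0.62 (SD, n = 4). The nearest values were those of Apoe-/- library 5 (-0.69) and Mif-2-/-Apoe-/- library 4 (-0.56). The balance carries the difference of Oat itself, and how often balances of other genes separate the libraries was not examined. No test was made on it, because the genes were chosen with earlier results of these data known. With TMM the periportal side of the balance differed by 0.02 between the genotypes, at 8.19 ± 0.32 (SD, n = 5) and 8.16 ± 0.26 (SD, n = 4) on the log2 scale, and the pericentral side by 1.01, at 9.19 ± 0.52 (SD, n = 5) and 8.18 ± 0.53 (SD, n = 4). Each side alone, unlike the balance, depends on the scaling of libraries. The median log2 fold change of the 8 periportal genes was -0.10 with TMM and 0.10 with TMMwsp, and that of Glul and Oat 0.99 and 1.19. With the 6 urea cycle genes alone as the periportal side the ranges touched, since Mif-2-/-Apoe-/- library 4 at -0.87 lay below Apoe-/- library 5 at -0.81.

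Single pairs differed in how well they separated the genotypes. Of the pairs below, Asl to Oat and Glul to Oat were not among those planned. Ratios to Oat carry the difference of Oat itself, and how often other gene pairs separate the libraries was not examined. The ratio of Arg1 to Oat counts, 2 enzymes that make and use ornithine, was between 0.619 and 0.914 in Apoe-/- and between 1.46 and 4.11 in Mif-2-/-Apoe-/- libraries. Asl to Oat was between 2.18 and 3.03 in the former and between 3.87 and 24.4 in the latter. Gls2 to Glul, the enzymes that open and close the glutamine cycle between the zones, was between 0.350 and 0.752 in Apoe-/- and between 0.750 and 1.46 in Mif-2-/-Apoe-/- libraries, so these ranges met at Apoe-/- library 5 and Mif-2-/-Apoe-/- library 2. The ratio of Cps1 to Glul overlapped fully, at 0.134 to 0.240 and 0.0938 to 0.587. Within the pericentral pair, Glul to Oat was between 0.963 and 1.31 in Apoe-/- and between 1.24 and 3.03 in Mif-2-/-Apoe-/- libraries, and Mif-2-/-Apoe-/- library 1 lay inside the Apoe-/- range.

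**Figure D3:**
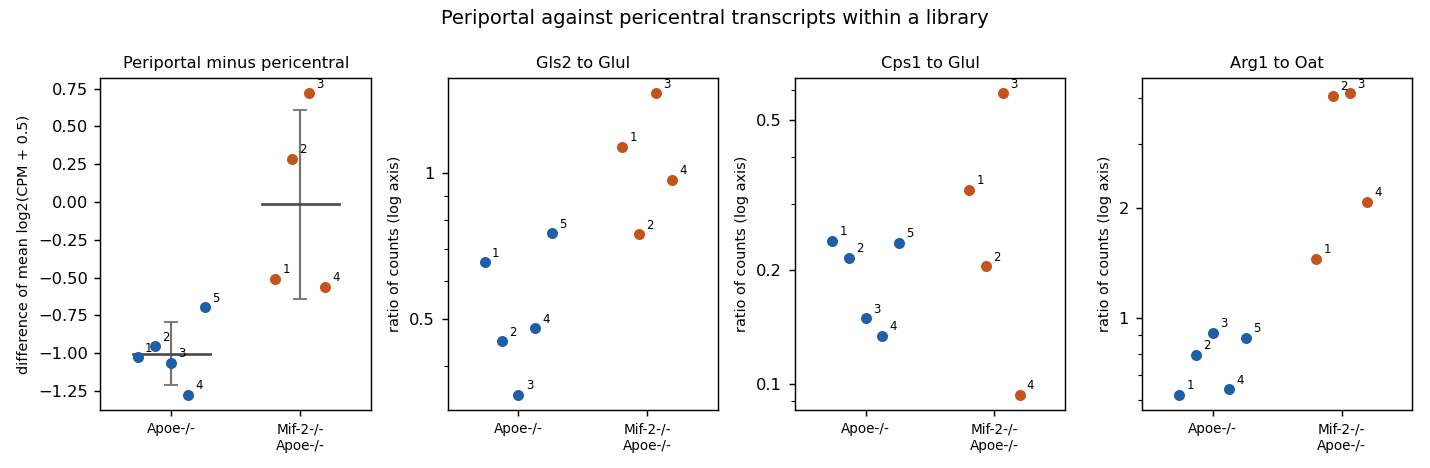
Difference between the mean log2(CPM + 0.5) of 8 periportal genes and that of Glul and Oat (left, with mean and SD), and ratios of counts within a library on log axes (Gls2 to Glul, Cps1 to Glul, Arg1 to Oat), one numbered point per library. Arg1 to Oat lies at 0.914 or below in Apoe-/- and at 1.46 or above in Mif-2-/-Apoe-/- libraries, while Cps1 to Glul overlaps.

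Glul and Oat varied together over the libraries (Pearson r = 0.85, Spearman rho = 0.87, n = 9, r = 0.65 without the 2 libraries farthest from the median). Within genotypes, after subtracting each group mean, r was 0.82. These values share the scaling and depth of their libraries and are given as a description. Among the 8152 genes whose mean reached 10 CPM, the patterns most like Glul were those of Dnajb11 (r = 0.98), Arpc4 (r = 0.98) and Btg2 (r = 0.97), and among those most like Cps1 were P4ha1 (r = 0.94) and Pip4p1 (r = 0.94), each over 9 libraries. Oat was in neither set. Cps1 and Glul were not alike (r = 0.04).

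**Figure D4:**
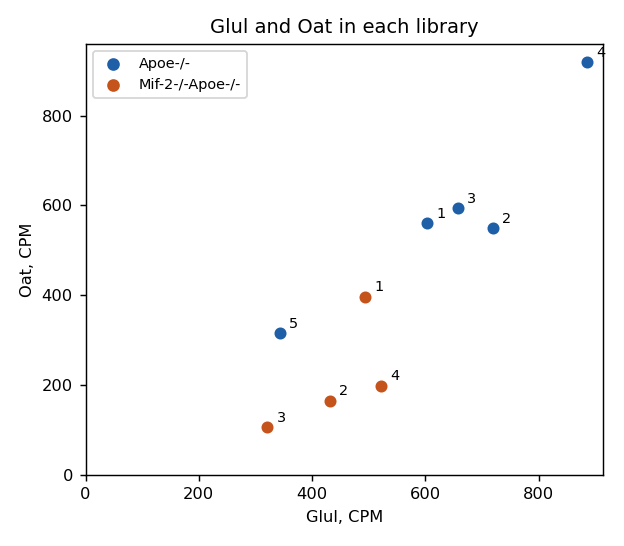
Oat against Glul in CPM, one point per library with its number, for Apoe-/- and Mif-2-/-Apoe-/- livers. Apoe-/- library 5 (343 CPM Glul, 315 CPM Oat) lies beside the Mif-2-/-Apoe-/- libraries, and Mif-2-/-Apoe-/- library 3 is lowest in both genes.

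Levels were compared between genes per kilobase of the principal GENCODE M21 transcript. In Apoe-/- livers the order in CPM per kb was Asl (618), Arg1 (297), Oat (273), Glul (230), Ass1 (205), Nags (130), Gls2 (127), Hal (62.6), Otc (38.5) and Cps1 (21.5). Neighbours in this order overlapped over the libraries except Gls2 above Hal. In Mif-2-/-Apoe-/- livers Asl (839), Arg1 (355) and Gls2 (181) led, Oat was the 7th gene at 101 CPM per kb, and Cps1 (21.96) was again the last. There Asl stood clear of Arg1 and Arg1 of Gls2, and the ranges of all later neighbours overlapped. The longest principal transcripts of these genes, Cps1 (5555 bases) and Hal (5319 bases), ranked 10th and 8th in both genotypes. RNA was captured by its poly(A) tail from fixed frozen sections. The part of capture, RNA quality and transcript length in these orders was not tested, so they need not be the orders of expression.

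Genes that feed or drain the cycle were examined as lists, and 0 of their genes were called by edgeR, against 0.13% of all genes. Of 15 transporters and enzymes that support the urea cycle and ammonia handling, 4 were positive and 11 negative, with a median log2 fold change of -0.44. At an unadjusted p under 0.05, 2 were positive and 2 negative, against 6.52% and 8.99% of all genes. Slc38a3, a glutamine transporter of the hepatocyte membrane, was at 1711 to 2656 CPM in Apoe-/- and 3106 to 5624 CPM in Mif-2-/-Apoe-/- libraries, without overlap (log2 fold change -1.04, SE 0.30, edgeR adjusted p = 0.159, exact permutation p = 0.0079, DESeq2 adjusted p = 0.0012). Car5a, the mitochondrial carbonic anhydrase that supplies bicarbonate to Cps1, had a log2 fold change of -0.89 (adjusted p = 0.239). Slc25a15, the mitochondrial ornithine carrier, had one of 1.14 (adjusted p = 0.370) and Got2, mitochondrial aspartate aminotransferase, one of 0.91 (adjusted p = 0.205), and the ranges of these 3 genes overlapped.

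The 22 genes of amino acid catabolism split, with 12 positive and 10 negative (median 0.19). At an unadjusted p under 0.05, 4 were positive and 3 negative, against 6.52% and 8.99% of all genes. Gldc, the glycine decarboxylase of the glycine cleavage system, was at 131, 102, 121, 126 and 94.1 CPM in Apoe-/- and 33.3, 36.3, 22.9 and 10.3 CPM in Mif-2-/-Apoe-/- libraries. Every Apoe-/- library lay above every Mif-2-/-Apoe-/- library. The log2 fold change was 2.16 (SE 0.40), just short of the threshold by edgeR (adjusted p = 0.054) and called by DESeq2 (adjusted p = 6.6e-06) and in 11 of the 19 other ways of processing. Sds, serine dehydratase and a periportal marker, went the other way, with 603, 559, 419, 597 and 247 CPM against 1338, 1507, 1442 and 928 CPM (log2 fold change -1.43, SE 0.32, edgeR adjusted p = 0.106, DESeq2 adjusted p = 0.00051). Tdo2, which opens the ring of tryptophan, had a log2 fold change of 1.41 (adjusted p = 0.233), and Tat, tyrosine aminotransferase, one of -1.05 (adjusted p = 0.229). Both overlapped between the genotypes.

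Of 12 genes around ornithine, proline and polyamines, 11 were tested, Pycr1 having too few counts, and 3 were positive and 8 negative (median -0.53). At an unadjusted p under 0.05, 1 was positive and 2 were negative, against 6.52% and 8.99% of all genes. Oaz1, the antizyme that restrains ornithine decarboxylase, was at 388 to 860 CPM in Apoe-/- and 205 to 352 CPM in Mif-2-/-Apoe-/- libraries (log2 fold change 1.22, SE 0.32, edgeR adjusted p = 0.137, DESeq2 adjusted p = 0.0045), without overlap. Its gene lies on chromosome 10, 5.1 Mb from the deleted Ddt. Sequence linked to the deletion cannot be told apart from genotype here, and its part in this difference was not tested. Srm, spermidine synthase, had a log2 fold change of 0.07 (adjusted p = 0.949). Aldh18a1, an enzyme of proline synthesis, was low, at 0.605 to 37.3 CPM over the 9 libraries, with a log2 fold change of -1.11 (adjusted p = 0.600).

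Among other zonation markers, the 10 periportal genes were 5 positive and 5 negative (median -0.36) and the 21 pericentral genes 14 positive and 7 negative (median 0.58). The pericentral median depended on the processing. It fell to 0.21 with the share of abundant genes as a covariate and to 0.30 without Mif-2-/-Apoe-/- library 3 (median of all genes -0.01 in both). With TMMwsp it was 0.73 (median of all genes 0.00). At an unadjusted p under 0.05, 2 periportal genes were positive and 4 negative, and of the pericentral genes 3 were positive and 2 negative. Of all genes 6.52% were positive and 8.99% negative at that p. Sds, which is also in the periportal list, was the lowest there, followed by Etnppl, which breaks down phosphoethanolamine (-1.29, adjusted p = 0.230). Ctsc, a lysosomal peptidase, and Pigr, the receptor that carries polymeric immunoglobulin into bile, were the highest (1.22, adjusted p = 0.402 and 1.06, adjusted p = 0.186). In the pericentral list, Aldh1a1, a retinal dehydrogenase, was at 113 to 246 CPM in Apoe-/- and 25.4 to 82.9 CPM in Mif-2-/-Apoe-/- libraries (log2 fold change 1.58, SE 0.39, edgeR adjusted p = 0.133, DESeq2 adjusted p = 0.0043), without overlap. Cyp2c50, a cytochrome P450, had a log2 fold change of 1.44 (adjusted p = 0.213). Cyp7a1, the rate-limiting enzyme of bile acid synthesis, was at 5.42 to 13.8 CPM in Apoe-/- and 13.1 to 51.4 CPM in Mif-2-/-Apoe-/- libraries, opposite to Glul and Oat (log2 fold change -2.05, edgeR adjusted p = 0.163, DESeq2 adjusted p = 0.0093). DESeq2 called Cyp7a1 in 7 of 9 runs with 1 library left out, and not without Mif-2-/-Apoe-/- library 1 or 4. Lgr5, a receptor for R-spondins, had no counts in at least 1 Apoe-/- library and a log2 fold change of -2.10 (adjusted p = 0.424).

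Of 9 Wnt ligands and signal components, which set the pericentral programme, 4 were positive and 5 negative (median -0.26). By edgeR 0 of them had an unadjusted p under 0.05, against 15.5% of all genes. The ligand genes were near the floor, so the test could show little for them. Wnt2 was at 0 to 10.9 CPM (SE 1.33), Wnt9b at 0 to 5.90 CPM (SE 1.22) and Rspo3 at 0 to 4.54 CPM (SE 1.45) over all libraries. The named members were Tcf7l1 (0.90, adjusted p = 0.561), Lrp6 (0.36, 0.746), Ctnnb1 (-0.33, 0.793) and Tcf7l2 (-0.26, 0.837), which encode TCF factors, a Wnt co-receptor and β-catenin. Of 12 regulators of urea cycle genes 2 were positive and 10 negative (median -0.54). At an unadjusted p under 0.05, 0 were positive and 2 negative, against 6.52% and 8.99% of all genes. Klf15, a transcription factor of amino acid breakdown, was at 98.1 to 260 CPM in Apoe-/- and 180 to 336 CPM in Mif-2-/-Apoe-/- libraries (log2 fold change -0.85, adjusted p = 0.270). Cebpb had a log2 fold change of -0.70 (adjusted p = 0.306), Cebpa one of 0.19 (adjusted p = 0.816) and Hnf4a one of 0.06 (adjusted p = 0.953), all of them hepatocyte transcription factors. The ranges of these 4 overlapped.

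**Figure D5:**
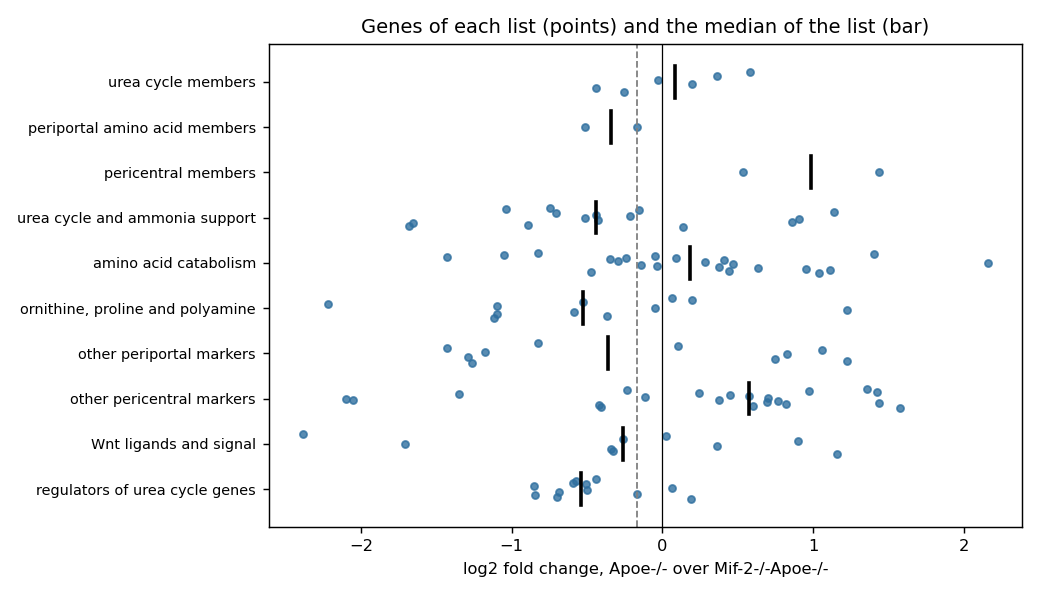
Log2 fold change, Apoe-/- over Mif-2-/-Apoe-/-, of the tested genes of each list (points), with the median of the list as a black bar and the median of all genes as a dashed line (-0.17). The bars for other pericentral markers (0.58) and regulators of urea cycle genes (-0.54) lie on opposite sides of that line, and each list holds genes on both sides of 0 except the short lists of Gls2 with Hal and of Glul with Oat.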

How the data were processed

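Poly(A) RNA from lysates of frozen liver sections had been made into Smart-seq2 libraries, which carry no strand information. Per the submitters' processing notes, reads were checked with FastQC, trimmed with cutadapt and aligned with HISAT2 to mm10, and the authors deposited the number of reads counted on exons as raw integer counts, each gene under its Entrez identifier and none of them normalized. Versions are not given in the sources used here.

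One line without an identifier was left out, and 25275 of 27179 identifiers were matched to RefSeq symbols. Groups follow the genotype of the labels. The study gives 4 mice per group for this experiment, and all 5 Apoe-/- libraries were kept. The test took every gene that 3 or more libraries of 1 genotype held with 1 count or more, without the 10 most abundant genes, none of which was among the 10 examined. The test was the quasi-likelihood test of edgeR 4.0.16 (R 4.3.3) with TMM and Benjamini-Hochberg adjustment at 0.05. SEs come from the fitted log2 value over the root of the F statistic. The biological coefficient of variation was 0.909. DESeq2 1.42.0 gave no adjusted p to 9102 genes. Exact permutation tests used log2(CPM + 0.5). The libraries carry no molecular identifiers, so the precision that depth gives covers counting error only.

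The genes and lists were chosen with earlier results of these data known. Named from each list were called genes and, at a mean of at least 10 CPM, the 2 with the highest positive and the 2 with the lowest negative log2 fold change, as well as the 3 genes most like Glul and most like Cps1. Some genes that this rule names are not reported here. Alternatives were other size factors and filters, abundant genes or gene classes (1077 genes) handled otherwise, a replicate block, a covariate, thinning, DESeq2 and each library left out. DESeq2 with each library left out was added after seeing the data. Gene positions are those of GENCODE M21 (GRCm38, the assembly also called mm10), and the deposited table holds none. Python 3.11.15, pandas 2.3.3 and matplotlib 3.10.9 were used for summaries and figures.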

Additional observations from a re-analysis of the deposited data

How the results depend on the processing

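The number of genes called by edgeR was 22 (10 positive and 12 negative), with a split of 15 to 12 under RLE size factors and 18 to 12 under TMMwsp. It was 739 with DESeq2 and 9 to 262 when 1 library was left out, with 126 without Apoe-/- library 5 and 262 without Mif-2-/-Apoe-/- library 2. Of the 10 genes examined, 0 were called by edgeR in every run that left out 1 library, 1 by DESeq2, and 0 to 2 by DESeq2 with 1 library left out. Of the 99 genes of the other lists, 0 were called, against 0.13% of all genes. Runs with RLE, TMMwsp, no filter, edgeR's own filter, the abundant genes kept, gene classes removed or thinned counts each called 1, Gldc. These runs called 25 to 32 of all genes. DESeq2 called 10 of the 99, against 5.27% of all genes. With 1 library left out edgeR called 0 to 3 of the 99, against 0.0548% to 1.6% of all genes. DESeq2 then called 6 to 19, against 2.86% to 12.6%. It called 17 without Apoe-/- library 5 (12.6% of all genes) and 19 without Mif-2-/-Apoe-/- library 2 (10.7%).

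A fit with the replicate number as a block called 560 genes, 1 of the 10 (Oat, log2 fold change 1.74) and 6 of the other lists, and gave Cps1 a log2 fold change of 0.25. The numbers are shared labels with no stated pairing. After the mean of its genotype was subtracted from each gene, same-numbered libraries correlated at 0.138, -0.016, 0.012 and -0.026. Of Apoe-/- libraries 1 to 4, only library 1 then correlated best with the Mif-2-/-Apoe-/- library of its own number.

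Small differences changed sign. The log2 fold change of Cps1 was 0.17 with TMMwsp, 0.065 with the abundant genes kept, 0.064 with gene classes removed and 0.23 with the share of abundant genes as a covariate. With that covariate Ass1 was at -0.11, Cebpa at -0.027 and Hnf4a at -0.16, Hal was at 0.023 with TMMwsp and Srm at -0.070 with thinned counts. With 1 library left out, in edgeR or DESeq2, Cps1 ranged from -0.34 to 0.28, Ass1 from -0.13 to 0.59, Hal from -0.29 to 0.083, Srm from -0.054 to 0.26, Ctnnb1 from -0.66 to 0.011, Tcf7l2 from -0.58 to 0.25, Cebpa from -0.0027 to 0.37 and Hnf4a from -0.15 to 0.23. The cause was not tested. The difference in balance stayed between -1.17 and -0.74.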

Other observations

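DESeq2 called 10 genes of the other lists, where it called 5.27% of all genes. Of the 10, 4 have not been described and are named here after their values were seen. Pck1, which opens gluconeogenesis from oxaloacetate and is periportal, was at 1030, 994, 670, 1058 and 414 CPM in Apoe-/- and 3002, 1878, 1355 and 1309 CPM in Mif-2-/-Apoe-/- libraries, without overlap (log2 fold change -1.18, edgeR adjusted p = 0.171, DESeq2 adjusted p = 0.021). Lhpp, a phosphatase gene that is the next listed neighbour of Oat on chromosome 7 (132610638 to 132706420, plus strand), was at 142 to 236 CPM in Apoe-/- and 94.2 to 132 CPM in Mif-2-/-Apoe-/- libraries, again without overlap (log2 fold change 0.70, edgeR adjusted p = 0.263, DESeq2 adjusted p = 0.047). Agxt, which turns glyoxylate into glycine, was at 670 to 1272 and 262 to 675 CPM (log2 fold change 1.04, edgeR adjusted p = 0.179, DESeq2 adjusted p = 0.036), with the lowest Apoe-/- value again in library 5. Cbs, which condenses homocysteine with serine, was at 867 to 1213 and 501 to 878 CPM (log2 fold change 0.64, edgeR adjusted p = 0.301, DESeq2 adjusted p = 0.0497). With 1 library left out, DESeq2 called Pck1 in 6 of 9 runs (not without Apoe-/- library 2 or 3 or Mif-2-/-Apoe-/- library 1), Agxt in 2 (without Apoe-/- library 5 or Mif-2-/-Apoe-/- library 2), Cbs in 2 (without Apoe-/- library 5 or Mif-2-/-Apoe-/- library 1) and Lhpp in 2 (without Apoe-/- library 3 or Mif-2-/-Apoe-/- library 2). Of the periportal and pericentral markers not named in the report, the cytochromes Cyp2f2 (periportal) and Cyp2e1 (pericentral) had almost the same log2 fold change, 0.75 and 0.77, with overlapping ranges.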
